A study of Mus musculus with 9 samples.

Results

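The ephrins, the semaphorins and their receptors are families of contact and guidance signals, compared here among 3 kinds of mouse cells: cardiac fibroblasts from adults, adult cardiac fibroblasts labelled dedifferentiated (the series title calls the method protein-based), and embryonic stem (ES) cells. Members were taken by gene symbol: the platform annotation gave 52 of these genes a row with 1 symbol, out of 19938 genes in all. They were 8 ephrins, 13 Eph receptors, 20 semaphorins, and 11 plexins and neuropilins. Ephb2 had no such row and was not analysed here. Every sample was labelled C57BL/6. The labels give no sex, exact age, culture time, protein or dose, and they name no transgene or ES line beyond C57. Each group had 3 samples, each read on 1 Affymetrix Mouse Gene 1.0 ST array. Separate cultures or animals are not stated for the 3 samples of a group. The p-values therefore reflect only how far these samples spread, and that spread may be technical. The number of arrays limits the precision.

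Ephrins are ligands anchored in the membrane of one cell that bind Eph receptor tyrosine kinases on its neighbour, and signals can run into both cells. Ephrins of class A are held by a lipid anchor and mostly bind EphA receptors, while those of class B cross the membrane and mostly bind EphB receptors. Semaphorins are secreted (class 3) or held in the membrane (classes 4 to 7). They act through plexins, which control small GTPases and the cytoskeleton, and most of class 3 needs a neuropilin as co-receptor. Both systems are best known for guiding axons and blood vessels and for sorting cells into separate territories in the embryo.

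The values are log2 expression values after RMA, so a difference of 1 log2 unit is a doubling. A gene was called higher or lower where it differed by at least 1 log2 unit and passed 0.05 after Benjamini-Hochberg adjustment in the limma fit over all 19938 genes. "Rose" and "fell" are used only for called differences between group means; the arrays do not follow single cells over time. Array medians lay between 4.647 and 4.859. The labelled cell types were checked against their markers: 12 of 12 fibroblast markers fell and 10 of 10 pluripotent cell markers rose in both other groups. Of 11 macrophage and leukocyte markers, 5 were lower and 2 higher (Cd68 and Laptm5) in each of those groups. Lyz2 was at 8.85 ± 0.2 (SD, n = 3) among the fibroblasts, 3.2 ± 0.16 among the dedifferentiated cells and 3.34 ± 0.051 among the ES cells. Ptprc, the pan-leukocyte marker, was at 4.42 ± 0.12, 3.59 ± 0.049 and 3.74 ± 0.16 in the same order. Over that list the mean level per array was 5.74 to 5.9 in fibroblasts, 4.55 to 4.59 in dedifferentiated cells and 4.72 to 4.82 in ES cells. The part of other cells in the results on fibroblasts was not tested. Sex-linked genes separated the fibroblasts from both other groups. Xist, the RNA of the inactive X chromosome, was at 7.24 to 7.39 on the fibroblast arrays and at 2.78 to 3.49 on the other 6. Y-linked Eif2s3y was at 3.45 to 3.69 in fibroblasts, 7.95 to 8.18 in dedifferentiated cells and 7.47 to 7.95 in ES cells. By these genes the dedifferentiated samples did not match the fibroblast samples in sex, and the labels name no common animal or culture for them. A difference in source and the dedifferentiation therefore cannot be told apart in any difference given here between fibroblasts and dedifferentiated cells. In bulk RNA, fewer cells of a type and less RNA per cell cannot be told apart.

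The promoters of 4 members are printed to show the sequence upstream of genes that the results turn on. They are those of Sema3d and Nrp1, the ligand and the receptor with the largest falls, of Ephb3, the Eph receptor with the largest rise, and of Efnb2, the ephrin with the largest fall. Each is the run of 250 bases before the RefSeq start of the gene, read on the gene's strand (RefSeq, GRCm38.p6), at chr5:12382916-12383165 on the plus strand for Sema3d, chr8:128358823-128359072 on the plus strand for Nrp1, chr16:21204545-21204794 on the plus strand for Ephb3 and chr8:8661243-8661492 on the minus strand for Efnb2. Capitals mark CpG dinucleotides, the sites of DNA methylation.
Sema3d: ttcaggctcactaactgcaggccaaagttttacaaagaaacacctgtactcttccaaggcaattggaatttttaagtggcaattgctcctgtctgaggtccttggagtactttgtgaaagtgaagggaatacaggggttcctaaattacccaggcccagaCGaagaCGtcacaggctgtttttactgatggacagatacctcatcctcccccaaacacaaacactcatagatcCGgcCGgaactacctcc
Nrp1: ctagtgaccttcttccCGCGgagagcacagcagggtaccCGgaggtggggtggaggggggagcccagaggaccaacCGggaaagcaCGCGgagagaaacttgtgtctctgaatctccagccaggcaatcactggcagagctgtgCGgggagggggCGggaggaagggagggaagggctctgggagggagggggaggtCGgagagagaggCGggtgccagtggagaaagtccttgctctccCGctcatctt
Ephb3: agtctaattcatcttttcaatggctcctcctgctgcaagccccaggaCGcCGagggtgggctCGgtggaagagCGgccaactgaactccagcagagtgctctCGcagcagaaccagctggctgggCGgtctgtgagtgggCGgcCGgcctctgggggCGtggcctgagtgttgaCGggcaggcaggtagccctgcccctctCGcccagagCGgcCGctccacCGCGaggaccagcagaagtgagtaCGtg
Efnb2: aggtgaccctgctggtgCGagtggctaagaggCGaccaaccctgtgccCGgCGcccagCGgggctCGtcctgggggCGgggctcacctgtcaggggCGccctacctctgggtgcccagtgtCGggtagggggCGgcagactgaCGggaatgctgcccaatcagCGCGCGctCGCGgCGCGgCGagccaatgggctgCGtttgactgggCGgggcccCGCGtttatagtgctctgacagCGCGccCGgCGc

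The CpG content of these windows differed widely. The Sema3d window held 4 CpG, and 62.2% of all 32851 RefSeq windows of that length held at least as many. The Nrp1 window held 11 (reached by 35.6% of windows), the Ephb3 window 16 (25.4%) and the Efnb2 window 27 (8.56%). A window was found for 46 of the 52 members, and the median over their 60 windows was 15.5 CpG, against 6 over all windows. The GC box (GGGCGG, either strand) was in 46 of the 60 windows (76.7%) and in 32.7% of all windows. It was in 18 of the 23 windows of called members (78.3%), so called members were close to the families as a whole. The TATA box (TATAAA, either strand) was in 1 member window, that of Efnb2, and in 12.4% of all windows. The E-box (CACGTG) was in 3 member windows and 6.02% of all. The octamer (ATTTGCAT, either strand), the motif bound by Oct4, was in 0 of 60 member windows and in 1.6% of all windows. These matches are letters in a window, not binding sites, and methylation was not measured.

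Against the fibroblasts, the dedifferentiated cells had 6 of 52 members higher and 5 lower, 21.2% in either direction beside 18.9% of all genes. Of all genes, 8.79% were higher and 10.1% lower in that comparison, so the members' shares of 11.5% and 9.62% were close to the background. The ES cells had 7 members higher, 13.5% against 8.85% of all genes, and 11 lower, 21.2% against 10.4% of all genes; in either direction it was 34.6% beside 19.2%. The split of calls in dedifferentiated cells moved with the scaling, to 5 higher and 7 lower after another quantile normalization and to 5 higher and 8 lower after median centring. The split over all 19938 genes moved too, from 1753 higher and 2012 lower to 1596 and 2137, and to 1462 and 2277. The median difference over the members was 0.02 log2 units for dedifferentiated cells and 0.04 for ES cells, beside 0.01 and 0.02 over all genes. Both comparisons share the fibroblast arrays, so their values are given side by side and are not independent. The 18 members called in at least 1 of the 3 comparisons were those called in ES cells against fibroblasts. The share of all genes called in at least 1 was not counted. A moderated F test over the 3 groups, which asks for no minimum size, called 38 of 52 members (73.1%), beside 52.8% of all genes.

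**Figure D1:**
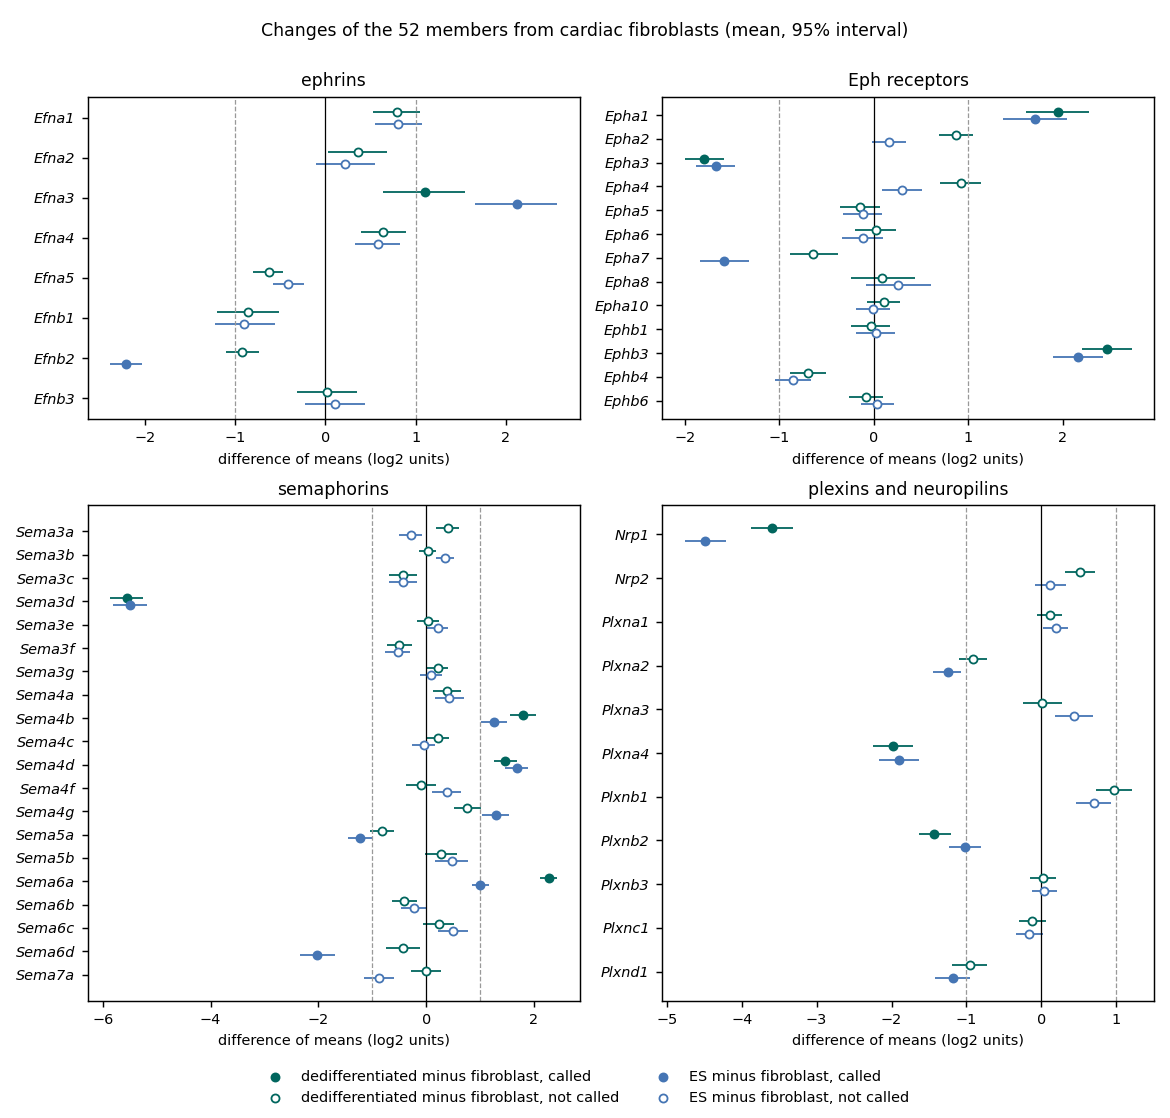
Difference from fibroblasts in log2 units (x axis) of each of the 52 members (y axis), for dedifferentiated cells and for ES cells, with the 95% interval from the fit; filled points were called and dashed lines mark 1 log2 unit. Sema3d and Nrp1 lie furthest to the left. No called plexin or neuropilin lies to the right of 0, beside 8.79% and 8.85% of all genes called higher.

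Among the 8 ephrins, Efna3 rose in both other groups and Efnb2 fell in ES cells. The shares in dedifferentiated cells were 12.5% higher and 0% lower, beside 8.79% and 10.1% of all genes. In ES cells they were 12.5% higher and 12.5% lower, beside 8.85% and 10.4%. Efna3, an ephrin with a lipid anchor, stood at 4.45, 4.78 and 5.11 on the fibroblast arrays, 5.82, 6.05 and 5.77 on the dedifferentiated arrays and 6.42, 7.02 and 7.26 on the ES arrays. No 2 groups overlapped. The rise was 1.1 log2 units in dedifferentiated cells (95% interval 0.64 to 1.55, adjusted p = 0.00081) and 2.12 in ES cells (1.66 to 2.57, adjusted p = 3.7e-06). The smaller rise fell below the required size without fibroblast replicate 1 (0.93), and after another quantile normalization or median centring (lowest value 0.98).

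Efnb2, the transmembrane ephrin that marks arteries in the embryo, ran the other way. Its values were 8.15, 8.17 and 8.25 in fibroblasts, 7.21, 7.35 and 7.24 in dedifferentiated cells and 5.99, 5.86 and 6.09 in ES cells. The ES arrays lay below all others, and the dedifferentiated arrays lay between. The difference from fibroblasts was -0.92 in dedifferentiated cells (95% interval -1.1 to -0.74), short of a call, and Efnb2 fell by 2.21 in ES cells (95% interval -2.39 to -2.03, adjusted p = 7.9e-10). Median centring moved the first of these to -1.04, past the required size.

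The 6 other ephrins were not called in any comparison. Efna1 differed from fibroblasts by 0.79 and 0.81 (dedifferentiated and ES cells) and Efna4 by 0.64 and 0.58, each with an adjusted p under 0.05 and no overlap between arrays. Efna1, Efna3 and Efna4 lie next to each other on chromosome 3, with 0 protein-coding genes between them, and all 3 had positive differences. Efna5 differed by -0.63 and -0.41. Efnb1, on the X chromosome, differed by -0.86 and -0.9, and ES cells passed the required size after median centring (-1.01), with array weights (-1.12) or without ES replicate 1 (-1.04). The part of the sex-linked difference between these groups in the values of X-linked members was not tested. Efna2 and Efnb3 overlapped between fibroblasts and each other group (differences of 0.02 to 0.36).

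Of 13 Eph receptors, Epha1 and Ephb3 rose in both other groups and Epha3 fell in both. The shares called in dedifferentiated cells were 15.4% higher and 7.69% lower, beside 8.79% and 10.1% of all genes. In ES cells, where Epha7 fell too, they were 15.4% higher and 15.4% lower, beside 8.85% and 10.4%. Ephb3, a receptor of class B ephrins known from the sorting of intestinal epithelium, was at 5.73, 6.01 and 5.9 in fibroblasts, 8.27, 8.37 and 8.38 in dedifferentiated cells and 7.8, 8.01 and 8.28 in ES cells. Every array of the other groups lay at 7.8 or above, clear of the fibroblast arrays. It rose by 2.46 log2 units in dedifferentiated cells (95% interval 2.2 to 2.73, adjusted p = 8.7e-09) and by 2.16 in ES cells (1.89 to 2.42, adjusted p = 2.6e-08).

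Epha1 was the other receptor that rose, and it is found mainly in epithelia. Its values were 4.14, 4.75 and 4.77 in fibroblasts, 6.39, 6.61 and 6.48 in dedifferentiated cells and 6.37, 6.12 and 6.27 in ES cells. The rise was 1.95 (95% interval 1.61 to 2.28) and 1.7 (1.37 to 2.04), with fibroblast replicate 1 the lowest of the 9 arrays. Epha3, a receptor of class A ephrins found in mesenchyme, was at 4.95, 5.0 and 4.92 in fibroblasts, 3.33, 2.99 and 3.16 in dedifferentiated cells and 3.27, 3.2 and 3.38 in ES cells. It fell by 1.8 (95% interval -2.0 to -1.59) and by 1.67 (-1.88 to -1.47). These levels are low throughout, and RMA understates the changes of dim genes.

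Epha7 was called in ES cells. It stood at 5.86, 6.01 and 6.1 in fibroblasts, 5.49, 5.21 and 5.36 in dedifferentiated cells and 4.52, 4.16 and 4.54 in ES cells, 3 groups without overlap. It fell by 1.58 in ES cells (95% interval -1.84 to -1.32, adjusted p = 3.2e-07), and the difference in dedifferentiated cells was -0.64 (-0.89 to -0.38). The Epha7 values in ES cells lay under the array medians, with no detection call, so the fall in RNA may be understated. Epha2, a receptor found in many epithelia and in early embryos, lay at 8.56 to 8.66 in fibroblasts, 9.43 to 9.61 in dedifferentiated cells and 8.72 to 8.9 in ES cells. Epha4, a broad-binding receptor that takes ligands of both classes, lay at 5.7 to 5.96, 6.74 to 6.77 and 6.0 to 6.31. For both receptors the dedifferentiated arrays were the highest, at differences from fibroblasts of 0.87 and 0.92, short of a call. Ephb4, the usual partner of Efnb2 on veins, differed by -0.7 in dedifferentiated cells and by -0.86 in ES cells. The remaining 6 Eph receptors (Epha5, Epha6, Epha8, Epha10, Ephb1 and Ephb6) overlapped between groups in all 3 comparisons, with no difference beyond 0.26 in size.

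**Figure D2:**
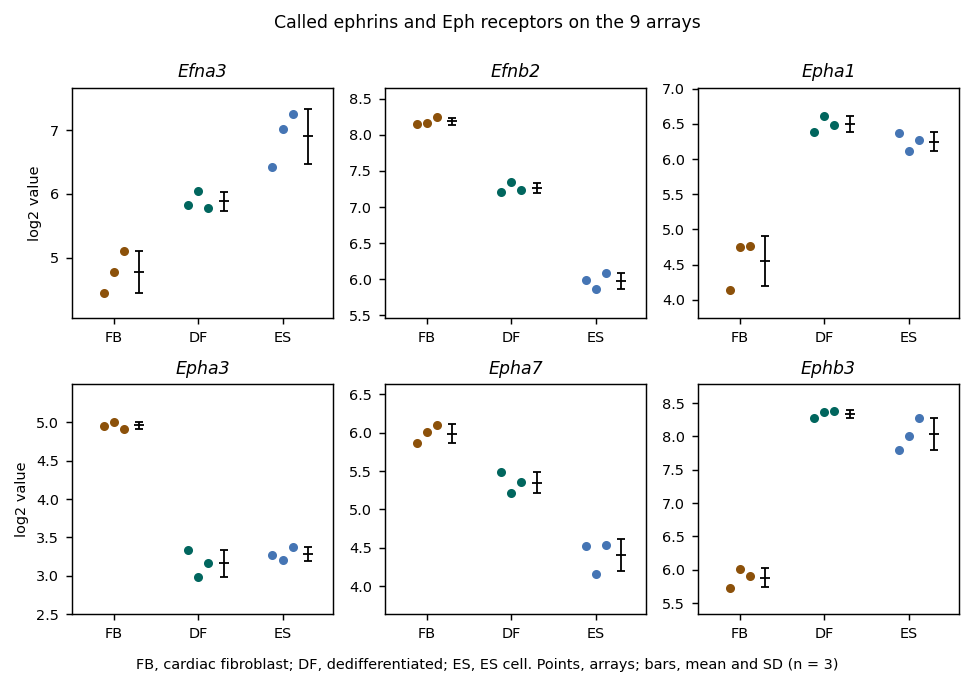
Log2 value (y axis) of the 6 called ephrins and Eph receptors on each array, by group (x axis), with the mean and SD of 3 arrays beside the points. Ephb3 and Epha1 are low only in fibroblasts, Epha3 is high only there, and Efna3, Efnb2 and Epha7 form steps from fibroblasts through dedifferentiated cells to ES cells.

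Of 20 semaphorins, 3 rose and 1 fell in dedifferentiated cells, and 4 rose and 3 fell in ES cells. These are 15% and 5%, beside 8.79% and 10.1% of all genes, and 20% and 15%, beside 8.85% and 10.4%. The largest change of any member was that of Sema3d, a secreted semaphorin known from the developing heart and its vessels. It was at 8.96, 8.9 and 9.16 in fibroblasts, 3.36, 3.32 and 3.64 in dedifferentiated cells and 3.29, 3.81 and 3.42 in ES cells. No array of the other groups came near the fibroblasts. Sema3d fell by 5.56 log2 units (47.3-fold, 95% interval -5.87 to -5.26, adjusted p = 3.9e-11) in dedifferentiated cells and by 5.5 (45.2-fold, -5.81 to -5.19, adjusted p = 3.8e-11) in ES cells. Both lower groups lay under the array medians, where no detection call separates signal from background, so these are differences of RMA values that may understate the fall in RNA.

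The other 6 class 3 semaphorins were not called. Sema3a, the classic repellent of axons, is the next protein-coding gene to Sema3d on chromosome 5. It lay at 3.68 to 3.9 in fibroblasts, 4.1 to 4.32 in dedifferentiated cells and 3.44 to 3.66 in ES cells. Its differences had opposite signs, 0.4 and -0.28. Every Sema3a value lay under the array medians, where no detection call separates signal from background. Sema3e lies further on, with 3 protein-coding genes between, and differed by 0.03 and 0.21. Neither neighbour was called. Sema3c differed by -0.44 and -0.43 and Sema3f by -0.5 and -0.53, without overlap. Sema3b and Sema3g differed by 0.03 to 0.35.

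Class 4 semaphorins, which cross the membrane, had 2 of 6 members higher in dedifferentiated cells, 3 of 6 higher in ES cells and 0 lower in either. Of all genes, 8.79% and 8.85% were higher and 10.1% and 10.4% lower, so 0 lower of 6 is no departure from the background. The lowest differences, of Sema4f in dedifferentiated cells (-0.1, 95% interval -0.37 to 0.18) and of Sema4c in ES cells (-0.04, -0.26 to 0.17), had intervals that include 0, so 0 were lower at an unadjusted p under 0.05 too. Sema4b was at 6.22, 6.57 and 6.36 in fibroblasts, 8.02, 8.34 and 8.17 in dedifferentiated cells and 7.72, 7.61 and 7.61 in ES cells. It rose by 1.8 (95% interval 1.56 to 2.03) and by 1.26 (1.02 to 1.5). Sema4d, also known as CD100, a ligand of plexin-B1 and of lymphocyte receptors, was at 4.83, 5.11 and 5.08, then 6.42, 6.52 and 6.5, then 6.84, 6.57 and 6.63 in the same order of groups. It rose by 1.47 (1.25 to 1.69) and by 1.68 (1.46 to 1.89). These values come from the brighter of its 2 rows. The dimmer row, with means of 4.75, 4.67 and 4.71, did not follow it, and the mean of both rows gave 0.69 and 0.82, below the required size. Sema4g was at 4.89, 4.63 and 4.7 in fibroblasts, 5.55, 5.51 and 5.45 in dedifferentiated cells and 5.78, 6.09 and 6.23 in ES cells. It rose by 1.29 in ES cells (95% interval 1.04 to 1.54), and dedifferentiated cells differed by 0.76 (0.51 to 1.01). Sema4a, Sema4c and Sema4f differed by -0.1 to 0.43 and were not called.

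Classes 5 and 6, also membrane proteins, held changes in both directions. Sema6a, a repellent of axons and neural cells that binds class A plexins, was at 5.7, 5.67 and 5.8 in fibroblasts, 8.0, 7.99 and 7.98 in dedifferentiated cells and 6.73, 6.66 and 6.79 in ES cells. The dedifferentiated arrays were the highest and the ES arrays lay between. Sema6a rose by 2.27 in dedifferentiated cells (95% interval 2.11 to 2.43, adjusted p = 2.4e-10). Its rise of 1.0 in ES cells (0.85 to 1.16) sat at the required size and fell below it without fibroblast replicate 1 (0.99) or 2 (0.98), without ES replicate 3 (0.97), and under other normalizations or array weights (lowest value 0.88).

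Sema6d, a class 6 ligand of plexin-A1 known from the looping heart tube, was at 7.0, 7.07 and 7.14 in fibroblasts, 6.34, 6.9 and 6.67 in dedifferentiated cells and 4.81, 5.04 and 5.28 in ES cells. The dedifferentiated arrays lay just below the fibroblast arrays and the ES arrays far below both. Sema6d fell by 2.03 in ES cells (95% interval -2.35 to -1.7, adjusted p = 2.5e-07), and the difference in dedifferentiated cells was -0.43 (-0.75 to -0.11). Sema5a, which carries thrombospondin repeats, was at 5.71, 5.38 and 5.77, then 4.84, 4.74 and 4.8, then 4.36, 4.46 and 4.36. It fell by 1.23 in ES cells (-1.45 to -1.0) and differed by -0.82 in dedifferentiated cells. The Sema5a values in ES cells lay under the array medians, with no detection call, so the fall in RNA may be understated. Sema7a, the semaphorin with a lipid anchor, lay at 5.87 to 6.13 in fibroblasts, 5.84 to 6.1 in dedifferentiated cells and 4.86 to 5.36 in ES cells. Its difference in ES cells was -0.87 (-1.15 to -0.59), and it was called at -1.0 without ES replicate 1. Sema5b, Sema6b and Sema6c differed from fibroblasts by no more than 0.5 in size. The 2 rows of Sema6b had the same group means.

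Among the receptors, neuropilin 1 and the plexins fell where they were called. Of the 11 plexins and neuropilins, 3 fell in dedifferentiated cells and 5 in ES cells, 27.3% and 45.5% beside 10.1% and 10.4% of all genes. In each comparison 0 were called higher, beside 8.79% and 8.85% of all genes, so 0 higher of 11 is no departure from the background. At an unadjusted p under 0.05, with no size required, 2 and 3 were higher. The share of all genes at that unadjusted threshold was not counted. At an adjusted p under 0.05 of any size, 2 were higher in each, beside 4977 and 5203 of all 19938 genes. Without fibroblast replicate 2, Plxnb1 was called higher in dedifferentiated cells, at 1.01. Nrp1, the co-receptor of class 3 semaphorins that also binds VEGF-A, was at 8.58, 8.22 and 8.49 in fibroblasts, 4.96, 4.61 and 4.93 in dedifferentiated cells and 3.99, 4.04 and 3.79 in ES cells. The 3 groups did not overlap. Nrp1 fell by 3.6 log2 units (12.1-fold, 95% interval -3.87 to -3.32, adjusted p = 5.2e-10) and by 4.49 (22.4-fold, -4.76 to -4.21, adjusted p = 8.1e-11). The ES arrays lay under the array medians, with no detection call, so the second value may understate the fall in RNA. Nrp2, its paralogue, lay at 6.62 to 6.91, 7.18 to 7.4 and 6.84 to 6.93, and differed by 0.51 (0.31 to 0.72) and 0.12 (-0.08 to 0.33), with no call.

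Class A plexins pair with neuropilins. Plxna4 was at 6.27, 6.48 and 6.34 in fibroblasts, 4.29, 4.58 and 4.27 in dedifferentiated cells and 4.66, 4.49 and 4.22 in ES cells. The other groups overlapped with each other and lay below the fibroblasts. It fell by 1.98 (95% interval -2.25 to -1.71) and by 1.9 (-2.17 to -1.63). Both lower groups lay under the medians of their arrays, with no detection call, so these values may understate the fall in RNA. Plxna2 was at 6.0, 5.96 and 5.9, then 5.04, 5.09 and 5.0, then 4.83, 4.55 and 4.73. It fell by 1.25 in ES cells (-1.44 to -1.07), and its difference of -0.91 in dedifferentiated cells passed the required size after another quantile normalization (-1.01) or median centring (-1.03). The Plxna2 values in ES cells lay under the medians of their arrays, with no detection call, so that fall may be understated. Plxna1 differed by 0.11 and 0.19, with intervals of -0.06 to 0.28 and 0.02 to 0.36. Plxna3, on the X chromosome, differed by 0.01 and 0.44.

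Plexins of other classes were mixed. Plxnb2, a broadly expressed receptor of class 4 semaphorins, was at 9.92, 9.99 and 10.03 in fibroblasts, 8.47, 8.59 and 8.6 in dedifferentiated cells and 8.75, 9.05 and 9.09 in ES cells. It fell by 1.43 (95% interval -1.64 to -1.21) and by 1.02 (-1.23 to -0.8). The second value dropped below the required size without fibroblast replicate 3 (-0.99) or ES replicate 1 (-0.91), and with another quantile normalization or array weights (-0.95 at the smallest). Plxnb1, the receptor of Sema4d, lay at 5.5 to 5.68, 6.54 to 6.61 and 6.11 to 6.55, with differences of 0.97 (0.73 to 1.21) and 0.7 (0.46 to 0.93) that were not called. Plxnd1, a plexin of blood vessels that binds Sema3e, fell by 1.18 in ES cells (-1.42 to -0.95) and differed by -0.95 (-1.19 to -0.72) in dedifferentiated cells, where it was called under other normalizations (-1.03 and -1.07) and without fibroblast replicate 2 (-1.03). Plxnb3 and Plxnc1 overlapped between groups, with differences of no more than 0.16 in size. Plxnb3 had the same value on the 3 dedifferentiated arrays, so its SD there is no measure of precision.

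**Figure D3:**
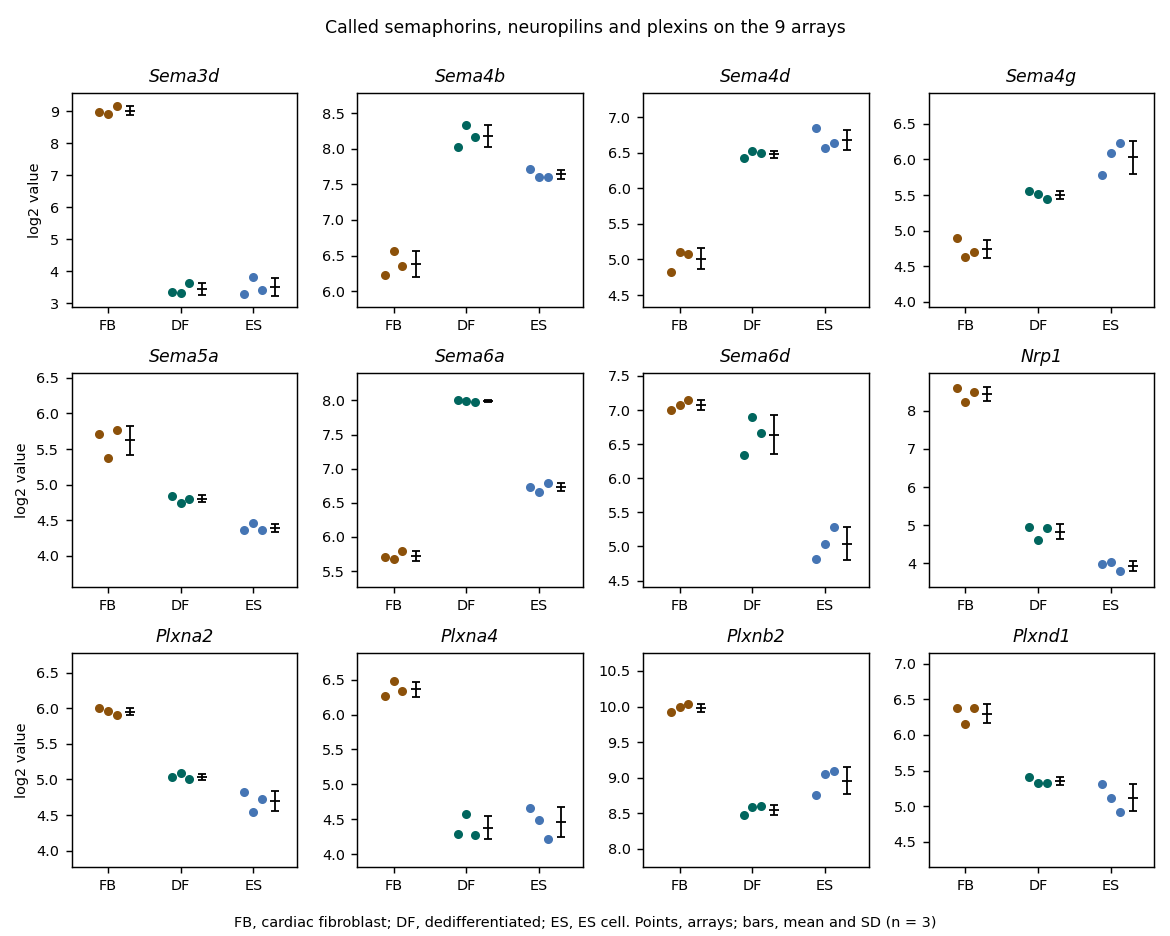
Log2 value (y axis) of the 12 called semaphorins, neuropilins and plexins on each array, by group (x axis), with the mean and SD of 3 arrays beside the points; the y range differs between panels. Sema3d drops from about 9.01 to 3.44 and 3.51, and Sema6a is highest in dedifferentiated cells at 7.99.

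Genes that act with these families were read from 3 lists of other genes. Of 35 signalling partners of semaphorins and plexins, 14 fell and 3 rose in dedifferentiated cells, and 13 fell and 2 rose in ES cells (medians -0.68 and -0.7 log2 units, beside 0.01 and 0.02 over all genes). Of all genes, 10.1% fell and 8.79% rose in dedifferentiated cells, and 10.4% fell and 8.85% rose in ES cells. Rnd1, a small GTPase that binds plexins, fell most in dedifferentiated cells, by 3.34 (95% interval -3.63 to -3.04). Mical2, an oxidase that takes apart actin filaments, fell most in ES cells, by 4.09 (-4.35 to -3.83). Crmp1, a cytosolic mediator of Sema3a signals, rose most in both, by 2.82 (2.62 to 3.01) and 1.62 (1.42 to 1.81). Of 26 signalling partners of Eph receptors and ephrins, 7 fell and 2 rose in dedifferentiated cells, and 9 fell and 2 rose in ES cells (medians -0.59 and -0.47), beside the same shares of all genes. The lipid phosphatase Inppl1 fell most in dedifferentiated cells, by 1.84, and the adaptor Sla most in ES cells, by 1.84. The adaptor Grb7 rose most, by 2.34 and 2.5.

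In other guidance families Slit2 fell and Flrt3 rose in both groups. Of 25 measured genes of the slit, netrin, Robo, Unc5, Rgm and Flrt groups and their relatives, 5 fell and 1 rose in dedifferentiated cells, and 6 fell and 1 rose in ES cells (medians -0.14 and -0.2). Of all genes, 10.1% fell and 8.79% rose, and 10.4% fell and 8.85% rose. Slit2, a secreted Robo ligand, had the largest fall, by 4.56 (95% interval -4.77 to -4.36) and by 4.04 (-4.25 to -3.84). Flrt3, an adhesion protein that binds Unc5 receptors, was the gene that rose, by 2.98 (2.62 to 3.33) and 1.84 (1.49 to 2.2).

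Between dedifferentiated and ES cells, 3 members were higher in dedifferentiated cells (5.77%, beside 1.01% of all genes) and 1 was lower (1.92%, beside 0.547%). The median difference was 0.04 log2 units over the members and 0 over all genes. Sema6d was higher by 1.59 (95% interval 1.27 to 1.91, adjusted p = 3.5e-05), Efnb2 by 1.29 (1.11 to 1.47, adjusted p = 3.4e-06) and Sema6a by 1.26 (1.11 to 1.42, adjusted p = 1.9e-06), each without overlap between arrays. These 3 differences stayed past the threshold in every alternative run apart from the larger size requirement. Efna3 was lower by 1.02 log2 units (95% interval -1.48 to -0.56, adjusted p = 0.0048). Its call was lost without dedifferentiated replicate 1 (-0.99) or 3 (-0.96), and without ES replicate 2 (-0.96) or 3 (-0.84).

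Other members came close to a call. Epha7 differed by 0.95 (95% interval 0.69 to 1.2) and Nrp1 by 0.89 (0.62 to 1.17), both higher in dedifferentiated cells. Epha7 was called without dedifferentiated replicate 2 (1.02), without ES replicate 1 (1.0) or 3 (1.01), and with array weights (1.11), and Nrp1 was called without dedifferentiated replicate 2 (1.01). Sema7a differed by 0.86 (0.58 to 1.14), Epha2 by 0.7 (0.52 to 0.88), Sema3a by 0.69 (0.47 to 0.9) and Epha4 by 0.61 (0.4 to 0.83). Of 13 Eph receptors, 0 were called in this comparison by limma. At an unadjusted p under 0.05, with no size required, 4 were higher in dedifferentiated cells and 0 lower. The share of all genes at that threshold was not counted. At an adjusted p under 0.05 of any size, 3 were higher and 0 lower, beside 2236 and 2003 of all 19938 genes. For 45 of 52 members (86.5%) the 95% interval lay within 1 log2 unit of 0, beside 96.2% of all genes. Sema3d differed by -0.06 (-0.37 to 0.24), Plxna4 by -0.08 (-0.35 to 0.19) and Epha3 by -0.12 (-0.33 to 0.08). Each of these genes lay under the array medians in both groups. With no detection call, their small differences may be between background values.

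**Figure D4:**
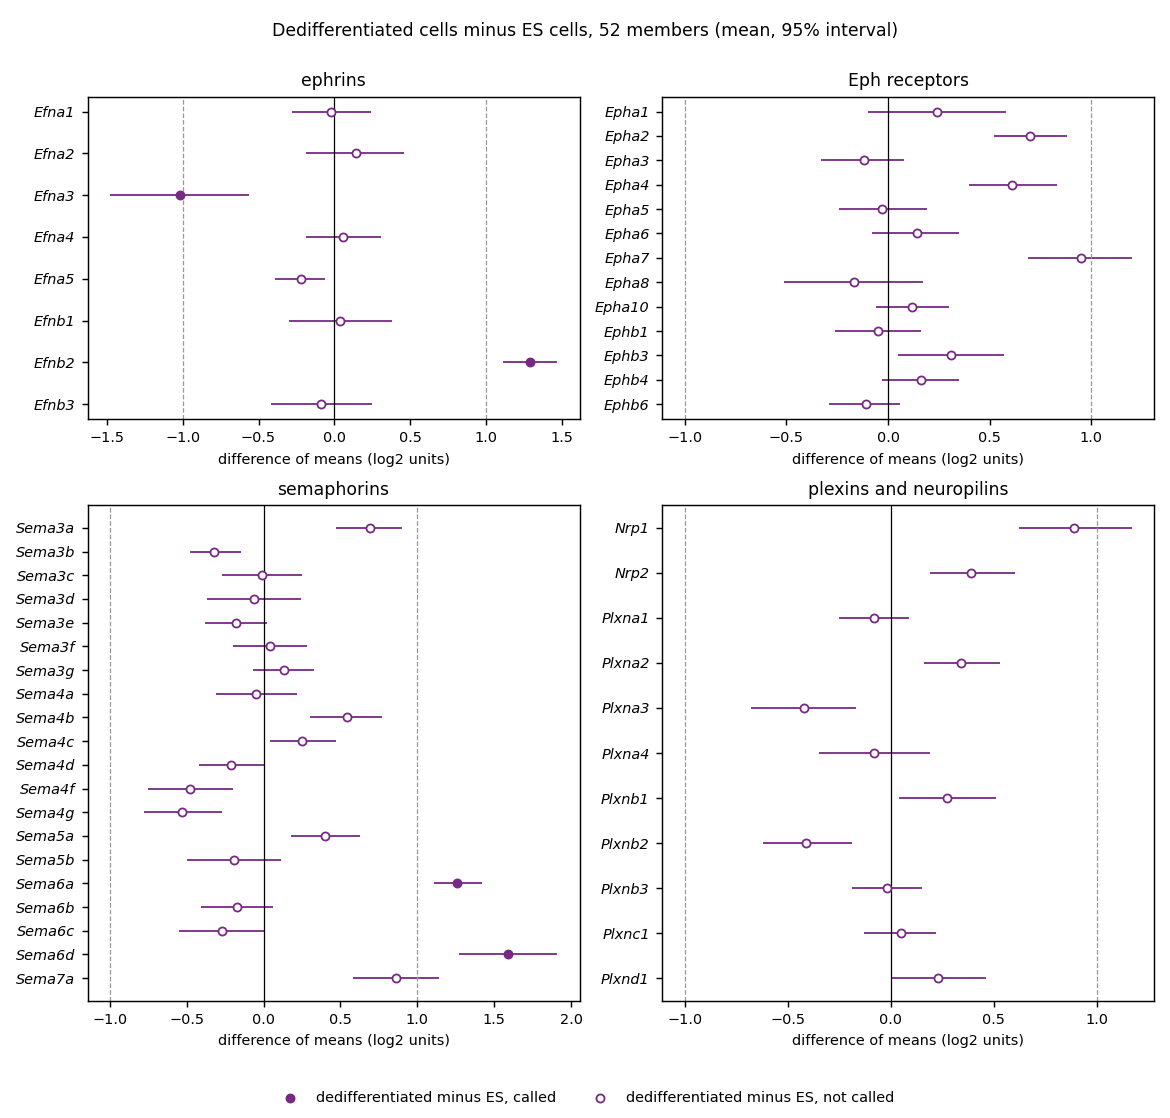
Dedifferentiated minus ES difference in log2 units (x axis) of each of the 52 members (y axis), with the 95% interval from the fit; filled points were called and dashed lines mark 1 log2 unit. Sema6d, Efnb2 and Sema6a lie beyond 1 and Efna3 beyond -1, and the intervals of 45 of 52 members stay within 1 log2 unit of 0.

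Among the pathway lists, 4 other genes were called between dedifferentiated and ES cells, all higher in dedifferentiated cells. Flrt2, an adhesion protein related to Flrt3, was higher by 2.28 (95% interval 2.0 to 2.57), Mical2 by 1.26 (1.0 to 1.52), Crmp1 by 1.2 (1.01 to 1.39) and Flrt3 by 1.13 (0.78 to 1.49). Of 12 fibroblast markers, Pdgfra and Dcn were called higher in dedifferentiated than in ES cells. Pdgfra was at 8.96 ± 0.11 and 7.59 ± 0.37 there, and the list's mean level was 5.45 to 5.54 and 5.0 to 5.09. Of 12 endothelial markers, Cdh5 and Esam were called higher in dedifferentiated than in ES cells. Cdh5 was at 5.77 ± 0.11 and 4.39 ± 0.066 there and at 4.61 ± 0.11 in fibroblasts (SD, n = 3 each). Over the endothelial list the mean level per array was 4.7 to 4.92 in fibroblasts, 5.32 to 5.4 in dedifferentiated cells and 4.95 to 5.0 in ES cells. Of 11 neural and glial markers, Tubb3 was called, at 7.83 ± 0.018 in dedifferentiated, 6.65 ± 0.21 in ES cells and 9.11 ± 0.087 in fibroblasts, and the list's mean level was 5.05 to 5.13 and 4.89 to 5.05. Of 12 smooth muscle and pericyte markers, Cnn1 was called higher in dedifferentiated than in ES cells, by 1.53 (95% interval 1.32 to 1.74), at 6.45 ± 0.032 and 4.92 ± 0.15, and Acta2 differed by 0.81 (0.55 to 1.07). Against fibroblasts, Acta2, Tagln and Cnn1 fell in both groups. The falls were 3.72, 3.76 and 1.47 in dedifferentiated cells and 4.53, 3.71 and 3.0 in ES cells. Des, of the same list, rose in both groups, and Notch3 rose in ES cells. The mean level of that list was 6.14 to 6.19 in fibroblasts, 5.44 to 5.51 in dedifferentiated cells and 5.38 to 5.46 in ES cells. The part of such cells in the results was not tested.

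In 11 members the dedifferentiated arrays lay wholly between the fibroblast and ES arrays (21.2%, beside 11.5% of all genes). The order fell from fibroblasts to ES cells for 7 of them (Efnb2, Epha7, Sema5a, Sema6d, Nrp1, Plxna2 and Plxnd1; 13.5%, beside 5.35% of all genes). It rose for 4 (Efna3, Sema4d, Sema4g and Sema6c; 7.69%, beside 6.13%). In 7 members the dedifferentiated arrays were above both other groups (Epha1, Epha2, Epha4, Sema3a, Sema4b, Sema6a and Nrp2; 13.5%, beside 9.2%). In 3 they were below both (Efna5, Sema6b and Plxnb2; 5.77%, beside 6.0%). These orders describe arrays and include differences too small for a call.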

How the data were processed

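RNA of 3 groups of 3 samples was hybridised to 9 arrays. The deposited values are log2 expression values, made with RMA in Affymetrix Expression Console 1.1, per the submitters' processing notes. RMA includes quantile normalization as a method, which hides a shift common to all transcripts. There is no detection call. Groups came from the sample titles; the fibroblasts' source label also mentions ES cells.

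Of 35557 rows, 21789 had 1 symbol in the platform annotation, 1621 several and 12147 were not listed there. The row with the highest mean was used for each gene, leaving 19938 genes. The members had 56 rows, and 4 members had 2 rows each. All 52 matched the NCBI gene table (GRCm38.p6) by Entrez ID. Array rows are given without coordinates, since their build is not given in the sources used here.

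The 9 arrays were fitted together in limma 3.58.1 under R 4.3.3, moderated by empirical Bayes, and p-values were adjusted over all genes (Benjamini-Hochberg). The members and lists were chosen with earlier results of these data known, so no p is given over a list. Values on each array are given for called members: up to 4 rises and 4 falls per family. From each pathway list the largest called rise and fall were named. One further list is not reported here. A simulation used real means and spread, for dedifferentiated against fibroblast cells over 19938 genes. The fit called 67 of 67 genes at a true change of 1.5 log2 units. It called 0 of 67 at 0.5 and 0 of 19738 at none. These 0 counts rest largely on the size required for a call, and no true change near 1 log2 unit was simulated. Alternatives were other normalizations, a filter on dim genes, the mean of a gene's rows, other variance models, fits of 2 groups, the replicate number as a block, other sizes and leaving out each array.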

Additional observations from a re-analysis of the deposited data

Results flagged for a closer look

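With no size required, 13 of 52 members were higher and 6 lower in dedifferentiated than in ES cells by the test of that difference. Of all 19938 genes, 2236 were higher and 2003 lower. Described here are the members past 1 log2 unit, and any whose 2 changes from fibroblasts had opposite directions, each with an adjusted p under 0.05 and no overlap of arrays. The difference, dedifferentiated minus ES, was 1.59 for Sema6d, 1.29 for Efnb2, 1.26 for Sema6a and -1.02 for Efna3, the 4 called differences. Sema3a, of opposite directions, was short of the required size at 0.69 (limma adjusted p = 0.0005). Its arrays lay above the fibroblasts in dedifferentiated cells and below them in ES cells. The highest ES value, 3.66, lay close to the lowest fibroblast value, 3.68. Every Sema3a value lay under the array medians, with no detection call, so signal over background is not shown. Groups of 3 arrays were not tested for outlying arrays.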

How the results depend on the processing

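Of 33 called member differences, 27 kept their call in every alternative run among 17 settings other than the size requirement (the filter on dim genes leaves some members untested), 6 lost it in at least 1, and 0 reversed. Median centring moved the median of all genes by -0.12 against fibroblasts. It gave 8 lower members in dedifferentiated cells, beside 2277 of 19938 genes. With only genes at or above the median level, fewer members were tested, 31 of 52. Of these, 2 were lower in dedifferentiated and 5 in ES cells, beside 1526 and 1579 of 9969 genes. With no size requirement, 15 members were higher and 17 lower in dedifferentiated cells, and 17 and 18 in ES cells. Between dedifferentiated and ES cells they were 13 and 6. Over all 19938 genes the same counts were 4977 and 4468, 5203 and 4570, and 2236 and 2003. With a size of at least 1.5 log2 units, 4 members were higher and 7 lower in ES cells. Between dedifferentiated and ES cells 1 was higher and 0 lower. Over all 19938 genes the same counts were 897 and 1311, and 50 and 13. Leaving out each array in turn gave 3 to 5 members higher and 0 to 1 lower between dedifferentiated and ES cells. Over all 19938 genes these runs gave 189 to 232 higher and 82 to 153 lower. The replicate number as a block left the counts at 6 and 5 in dedifferentiated cells, 7 and 11 in ES cells, and 3 and 1 between them, so the block changed no count of calls. Deviations of same-numbered arrays correlated at -0.204 to 0.25, above 0.1 in 3 of 9 pairs. Differently numbered arrays correlated at -0.241 to 0.324, above 0.1 in 4 of 18 pairs, so the numbers were not taken as a pairing. Between fibroblasts and dedifferentiated cells alone, same-numbered pairs correlated at 0.101, 0.154 and 0.038, and the others at -0.118 to 0.043. A pairing of these groups was tested only through the block. Low values carry no detection call, so signal over background was not assessed.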

Other observations

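ES replicate 1 had the highest of the 3 ES values in 26 of 52 members, ES replicate 2 in 8 and ES replicate 3 in 18. The same counts over all genes were not made. The median of the whole array was also highest on ES replicate 1, at 4.859, beside 4.761 and 4.763 on ES replicates 2 and 3. The median distance of a member's value from its group mean was 0.12 log2 units on ES replicate 1 and 0.045 to 0.091 on the other 8 arrays. Efnb3, Epha8 and Sema6c were chosen after their values were seen. They stood at 5.91, 5.43 and 5.69 on ES replicate 1 and at 4.82 to 5.33 on the other ES arrays.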
